A study of Mus musculus with 9 samples.

Results

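The genes Cxcl1, Cxcl2, Cxcl3, Cxcl5, Ccl2, Ccl3, Ccl4, Ccl6, Ccl7 and Ccl9 encode secreted chemokines that draw neutrophils and monocytes. These 10 genes, of 18194 with a probe set of their own, were chosen by name with earlier results of these data known. For each gene 1 probe set was used, that of the highest mean signal on the 9 arrays by which it was selected. Sequences, list genes and genes of similar course were picked later from measured differences, as stated where they appear. All 10 had such a probe set, 14 in all, with 3 for Cxcl1 and 2 each for Ccl6 and Ccl9.

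RNA came from tibial shafts of wild-type CD1 mice, 16 to 18 weeks old, and was read on Affymetrix mouse arrays in 3 groups of 3. The groups were virgin mice of matched age, mice on day 12 of lactation, and mice killed 7 days after their pups were taken away on lactation day 12, called post-lactation. Litters of the nursing mice held 8 to 13 pups. Marrow was spun out, and repeated collagenase, trypsin and EDTA digestion stripped cells from the bone surface before extraction, so the RNA is osteocyte-enriched and not from sorted osteocytes. Titles were followed for the groups, because the post-lactation arrays carry a source field naming virgin mice, and one extraction sentence speaks of femurs. Whether the arrays came from separate mice is not stated, so p-values cover the spread among these samples, which may be technical.

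Chemokines bind receptors on the surface of white blood cells and direct their movement out of blood and marrow. The CXC chemokines Cxcl1, Cxcl2, Cxcl3 and Cxcl5 act on neutrophils through Cxcr2, and Ccl2 and Ccl7 draw monocytes through Ccr2. Ccl3 and Ccl4 are inflammatory chemokines of macrophages, and Ccl6 and Ccl9, which are made by mouse myeloid cells, act through Ccr1. Chemokines of the first group are textbook targets of the transcription factor NF-kB, which inflammatory cytokines such as interleukin 1 and TNF switch on.

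Cxcl5, Cxcl3, Cxcl1 and Cxcl2 lie in that order on chromosome 5, and the 6 Ccl genes lie on chromosome 11. The promoters of Cxcl3, Cxcl1 and Cxcl2 are shown because Cxcl3 is the chemokine that passed the test and the other 2 are its close relatives beside it. Each window runs from 250 bases before the start of the gene to 50 after it, from RefSeq on build GRCm38.p6, plus strand: chr5:90785851-90786150 for Cxcl3, chr5:90890995-90891294 for Cxcl1 and chr5:90903649-90903948 for Cxcl2. Capitals mark matches to an NF-kB motif on either strand, GGG and TTCC with any 3 bases between them, and matches that overlap run together.
Cxcl3: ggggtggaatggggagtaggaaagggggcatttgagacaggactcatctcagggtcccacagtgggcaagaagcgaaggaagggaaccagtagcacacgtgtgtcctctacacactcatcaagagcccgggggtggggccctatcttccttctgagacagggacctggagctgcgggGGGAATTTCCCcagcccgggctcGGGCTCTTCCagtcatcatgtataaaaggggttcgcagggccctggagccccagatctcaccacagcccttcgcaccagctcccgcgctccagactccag
Cxcl1: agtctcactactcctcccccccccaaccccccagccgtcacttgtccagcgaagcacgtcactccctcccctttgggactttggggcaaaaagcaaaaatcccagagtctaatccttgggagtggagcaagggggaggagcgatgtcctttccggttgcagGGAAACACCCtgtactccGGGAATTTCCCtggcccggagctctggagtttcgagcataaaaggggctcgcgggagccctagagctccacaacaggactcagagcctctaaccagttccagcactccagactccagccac
Cxcl2: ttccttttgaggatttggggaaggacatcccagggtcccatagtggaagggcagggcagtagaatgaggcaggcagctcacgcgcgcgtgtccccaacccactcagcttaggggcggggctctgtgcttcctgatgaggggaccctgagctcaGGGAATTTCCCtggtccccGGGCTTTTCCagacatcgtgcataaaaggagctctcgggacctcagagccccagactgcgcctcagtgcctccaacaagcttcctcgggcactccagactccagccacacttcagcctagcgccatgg
All 3 windows held the same 10 letters, GGGAATTTCC, whose first base lay 73 bases before the start in Cxcl3, 71 in Cxcl1 and 97 in Cxcl2. On the other strand the motif matched again 1 base further on in each. Each window held 1 further match: GGGCTCTTCC in Cxcl3, 50 bases before the start, GGGCTTTTCC in Cxcl2, 78 bases before it, and in Cxcl1 a match on the other strand, read on the plus strand as GGAAACACCC, 89 bases before it. The 10 letters were taken because these 3 windows share them. They occurred in 0.0883% of the 32851 promoter windows, these 3 included, and the looser NF-kB motif in 5.56%. Of the 6 chemokines with a window, Cxcl1, Cxcl2, Cxcl3 and Ccl9 held the NF-kB motif, and 1, Ccl9, held the AP-1 letters TGANTCA, which 7.81% of windows held. The windows at hand held none of Cxcl5, Ccl2, Ccl7 or Ccl4, so the motifs were not searched in these genes. A match is a description of letters and does not show binding.

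Values are the log2 signals the authors summarised by RMA, and the arrays fell into 3 sets, each with 1 array of every group, that shared exactly equal values. Array medians were lowest in set 1 (4.32 to 4.35), then 4.57 in set 3 and highest in set 2 (4.80 to 4.82), and differences between groups are therefore also given set by set, and from a fit with a block for the set (the set block). Virgin 1 belonged to set 1 with lactation 3 and post-lactation 1. Virgin 2 belonged to set 2 with lactation 2 and post-lactation 3, and virgin 3 to set 3 with lactation 1 and post-lactation 2. Virgin 1 stood apart in its markers: the 9 osteocyte genes averaged 3.27 log2 above the array's median there and 4.60 to 5.59 in the other 8 arrays. A level below 4.87, the 40th percentile of gene means, was treated as dim, and folds over a dim group were computed over that level instead and are lower bounds.

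In lactation, Cxcl3 was the chemokine with the clearest difference from virgin mice, and after weaning it was again above all virgin arrays. Ccl6 had a higher mean at each stage, without passing the test. Most of the others had their highest mean after weaning: that was so for 9 of the 10 chemokines, Cxcl3 being the exception, where 36.5% of all genes had theirs there. The plot of signals by array shows these 3 courses.

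**Figure D1:**
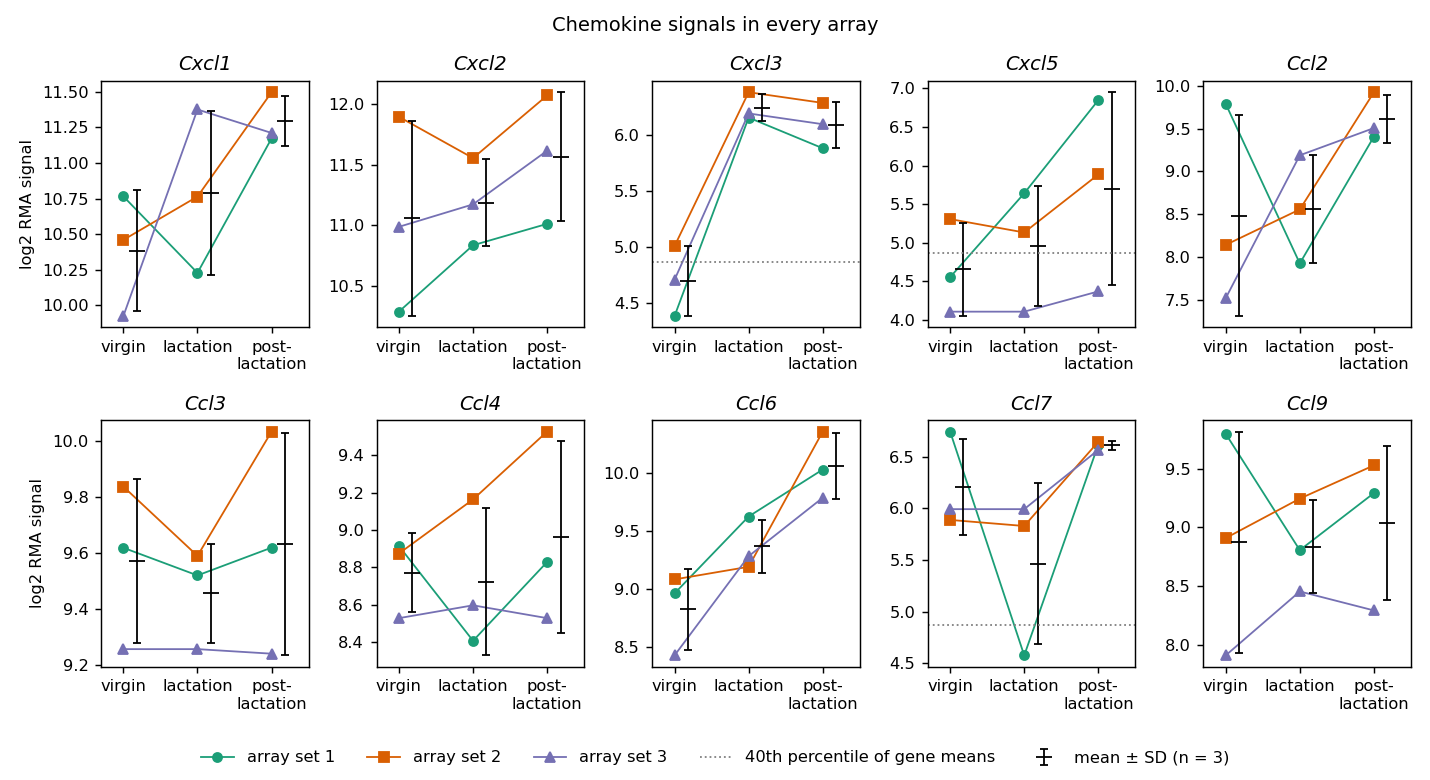
Log2 RMA signal (vertical axis, a separate scale in each panel) of 10 chemokine genes in virgin, lactation and post-lactation arrays. Coloured points joined by lines are the 3 arrays of 1 array set, black marks are group means ± SD (n = 3), and the dotted line is the 40th percentile of gene means, 4.87; Cxcl3 lies at 4.39 to 5.01 in virgin arrays and at 5.88 to 6.38 in all 6 later arrays.

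Lactation was first set against virgin, to ask which signals change while milk production draws on bone mineral. Cxcl3, a CXC chemokine for neutrophils, was at least 2.59-fold higher in lactation. Its log2 signal was 4.39, 5.01 and 4.71 in virgin 1, 2 and 3, 6.19, 6.38 and 6.15 in lactation 1, 2 and 3, and 5.88, 6.09 and 6.28 in post-lactation 1, 2 and 3. Every lactation and post-lactation array was above every virgin array. Means were 6.24 ± 0.12 in lactation and 4.70 ± 0.31 in virgin mice (SD, n = 3 each), and the virgin mean was dim.

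The log2 difference of Cxcl3 in lactation was 1.54 (SE 0.22), with 1.77, 1.37 and 1.48 within sets 1, 2 and 3. By limma across all genes it had the smallest p of the 18194, but its adjusted p was 0.336, or 0.0312 under the set block. Read as log2 above the array's own median, it was 1.62, 1.56 and 1.83 in lactation 1, 2 and 3 and 0.07, 0.19 and 0.14 in virgin 1, 2 and 3. Fitted on values centred on array medians, limma gave an adjusted p of 0.0113, and after quantile normalization of all 9 arrays 0.00505; in both fits Cxcl3 was the 1 gene called. With the set block its call ended whichever array was left out, with an adjusted p from 0.0568 to 0.358.

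Without a block 0 of the 10 chemokines passed, against 0% of all genes (limma, 328 genes and 2 chemokines, Cxcl3 and Ccl6, at an unadjusted p under 0.05). With the set as a block 1 rose, Cxcl3, against 0.022% of all genes. Cxcl3 and Ccl6 were higher in all 3 sets, 2 of 10 where 10.4% of all genes were. The means of 6 chemokines were higher in lactation and those of 4 lower, with a median log2 difference of 0.10 beside 0.01 over all genes. Of all 18194 genes, 9549 had a higher mean and 8593 a lower one.

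Ccl7, a monocyte attractant, had its lowest mean in lactation, by an amount that depended on set 1. Its signal was 5.99, 5.83 and 4.58 in lactation 1, 2 and 3 and 6.74, 5.89 and 5.99 in virgin 1, 2 and 3. Lactation 3 was low and virgin 1 was high, and the groups overlapped. The log2 difference was -0.74 (SE 0.36), and within sets 1, 2 and 3 it was -2.17, -0.06 and 0. The 0 of set 3 comes from exactly equal values and was not read as an absence of change. Without lactation 3 it was -0.30, and neither fit called it (adjusted p = 1, and 0.76 with the set block).

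Post-lactation was set against lactation next, to ask what changes once the demand for milk calcium ends. Of all 18194 genes, 9108 had a higher mean after weaning than in lactation. The means of 9 chemokines were higher after weaning, Ccl7, Ccl2, Cxcl5 and Ccl6 by the most, and that of Cxcl3 was lower by 0.15 log2. None passed the test across all genes. In limma 0 of 10 were called without a block, against 0.709% of all genes, and 0 with the set block, against 3.53%; at an unadjusted p under 0.05 there were 2 of 10 in each, Ccl6 and Ccl7, where 921 of the 18194 genes were without a block and 2740 with it. Cxcl2, Cxcl5, Ccl2, Ccl6 and Ccl7 were higher in all 3 sets, 5 of 10 where 12.8% of all genes were. The median log2 difference was 0.44, beside 0 over all genes.

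Ccl6 had the same direction at both steps. It encodes a chemokine of mouse macrophages and granulocytes, and its signal was 8.96, 9.08 and 8.43 in virgin 1, 2 and 3, 9.28, 9.19 and 9.63 in lactation 1, 2 and 3, and 10.03, 9.79 and 10.36 in post-lactation 1, 2 and 3. The 3 groups did not overlap. Post-lactation was above lactation by 0.69 log2 (SE 0.25), with 0.41, 1.17 and 0.50 within sets, and the adjusted p was 0.597, or 0.101 with the set block. Lactation was above virgin by 0.54 (SE 0.25), with 0.66, 0.11 and 0.86 within sets, at an adjusted p of 1 and 0.407. A dimmer probe set of Ccl6 differed by 0.33 and 0.59 in these comparisons, with the post-lactation difference exactly 0 in set 3.

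Ccl7 after weaning was even across arrays in log2 signal. Read as log2 above the array's own median it was less so, at 2.27, 1.99 and 1.84 in post-lactation 1, 2 and 3. As signal, Ccl7 was as follows. It stood at 6.62, 6.57 and 6.64 in post-lactation 1, 2 and 3, above all 3 lactation arrays, and averaged 6.61 ± 0.04 after weaning and 5.47 ± 0.77 in lactation (SD, n = 3 each). The difference was 1.14 log2 (SE 0.36; adjusted p = 0.407, and 0.265 with the set block), and 2.04, 0.82 and 0.57 within the sets. Without lactation 3 it was 0.70.

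Ccl2, which calls monocytes out of marrow and lies beside Ccl7 on chromosome 11, also had a higher mean after weaning than in lactation. Its signal was 9.79, 8.14 and 7.52 in virgin 1, 2 and 3, 9.19, 8.56 and 7.93 in lactation 1, 2 and 3, and 9.41, 9.51 and 9.92 in post-lactation 1, 2 and 3. All post-lactation arrays were above all lactation arrays, but virgin 1 was as high as they were. Post-lactation was 2.08-fold above lactation, a log2 difference of 1.05 (SE 0.50; adjusted p = 1, and 0.501 with the set block), and 1.48, 1.37 and 0.32 within the sets. Against virgin the difference was 1.13 (SE 0.50), and it was -0.38 in set 1, 1.78 in set 2 and 1.99 in set 3. Leaving out virgin 1 made it 1.78, still not called.

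Last, post-lactation was set against virgin, to ask how signals after weaning compared with those of virgin mice of matched age. By the probe sets used, all 10 chemokines had a higher mean after weaning than in virgin mice, where 9253 of all 18194 genes did. The 10 still did without virgin 1. Leaving out other arrays ended this for 3 of them: at the lowest, Ccl9 was at -0.31 without virgin 3, and Ccl3 at -0.14 and Ccl4 at -0.09 without post-lactation 3. With the mean of its probe sets Ccl9 was at -0.013. Its other probe set was at -0.19, and at -0.92, 0.25 and 0.10 within sets 1, 2 and 3. Cxcl3 was the single one that passed. In limma 1 of 10 rose without a block, against 0.176% of all genes called, and the same 1 rose with the set block, against 0.451%. Cxcl1, Cxcl2, Cxcl3, Cxcl5 and Ccl6 were higher in all 3 sets, 5 of 10 where 5.91% of all genes were. The median log2 difference was 0.71, beside 0.00 over all genes, and it was 0.20, 0.71 and 0.60 within sets 1, 2 and 3.

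Cxcl3 was at least 2.33-fold higher after weaning than in virgin mice, averaging 6.09 ± 0.20 and 4.70 ± 0.31 (SD, n = 3 each). The log2 difference was 1.38 (SE 0.22), and 1.49, 1.27 and 1.39 within the sets. Its adjusted p by limma was 0.0364, or 0.0148 under the set block, 0.00292 on values centred on array medians and 0.00334 after quantile normalization. It was the 1 gene of the 18194 that rose without a block, where 31 fell. Without a block the call remained without virgin 2 (adjusted p = 0.0468) and ended without any other single array (0.0523 to 0.196). With the set block it remained without virgin 3, lactation 3, post-lactation 2 or post-lactation 3, and ended without virgin 1, virgin 2, lactation 1, lactation 2 or post-lactation 1 (0.0541 to 0.126).

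Ccl6 came closest after Cxcl3. It was 2.35-fold higher after weaning than in virgin mice, 10.06 ± 0.29 and 8.82 ± 0.35 (SD, n = 3 each), and every post-lactation array was above every virgin array. The log2 difference of 1.23 (SE 0.25) was 1.07, 1.27 and 1.36 within the sets, with an adjusted p of 0.158, or 0.0536 with the set block. The dimmer probe set differed by 0.92, and by 0.23, 1.48 and 1.05 within the sets.

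**Figure D2:**
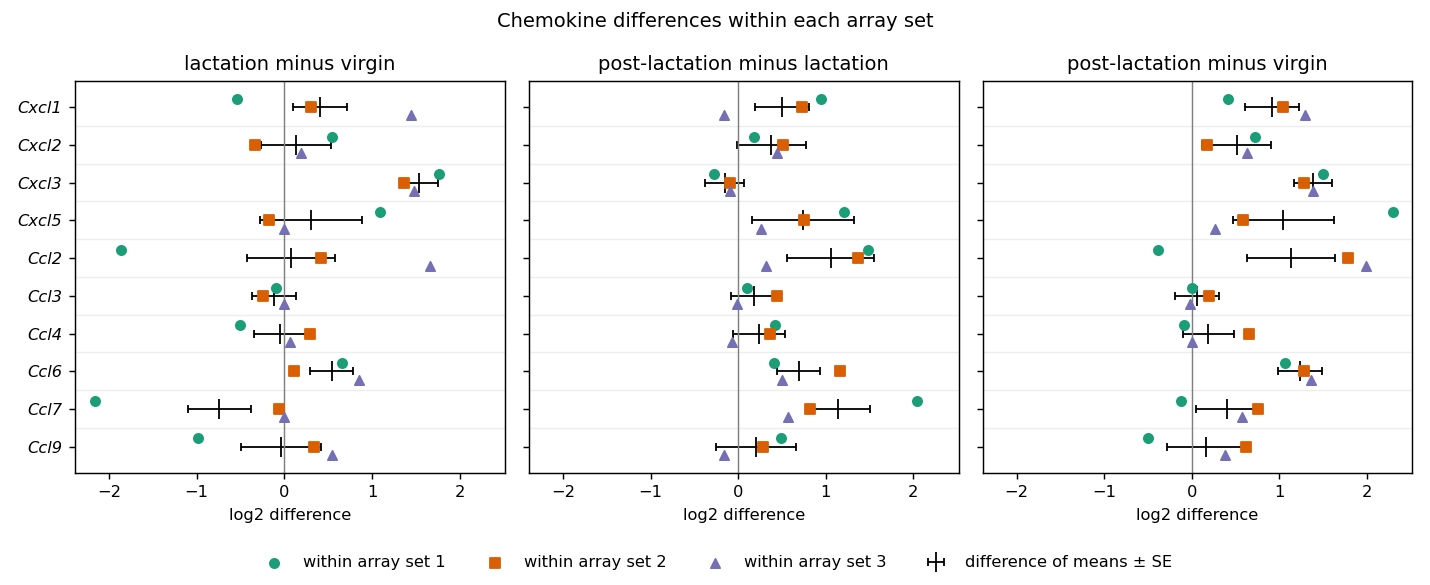
Log2 differences (horizontal axis) of the 10 chemokine genes in 3 comparisons. Coloured symbols are the difference within 1 array set, and black marks the difference of group means ± SE of the limma fit without a block; for Cxcl3 the 3 sets lie between 1.37 and 1.77 in lactation minus virgin and between 1.27 and 1.49 in post-lactation minus virgin.

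Cxcl1 and Cxcl2, which carry the promoter letters shown above, are close relatives of Cxcl3 and the chief neutrophil attractants of the mouse. Cxcl1 had 10.77, 10.46 and 9.92 in virgin 1, 2 and 3, 11.38, 10.76 and 10.23 in lactation 1, 2 and 3, and 11.17, 11.21 and 11.50 in post-lactation 1, 2 and 3. Post-lactation arrays were all above virgin arrays, whereas lactation arrays overlapped both groups. The difference after weaning from virgin was 0.91 log2 (SE 0.31; adjusted p = 1, and 0.551 with the set block), and 0.41, 1.04 and 1.29 within the sets. Its other probe sets differed by 0.91 and 0.75.

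Cxcl2 had 10.28, 11.89 and 10.99 in virgin 1, 2 and 3, 11.17, 11.55 and 10.83 in lactation 1, 2 and 3, and 11.01, 11.61 and 12.07 in post-lactation 1, 2 and 3. All 3 groups overlapped, and virgin 1 was the lowest array and post-lactation 3 the highest. Within sets, post-lactation was above virgin by 0.73, 0.18 and 0.63, and above lactation by 0.18, 0.52 and 0.44. The difference from virgin was 0.51 (SE 0.40, adjusted p = 1) without a block and had an SE of 0.16 with it (adjusted p = 0.443). Without a block it was 0.13 without virgin 1 and 0.93 without virgin 2. Lactation minus virgin was 0.41 (SE 0.31) for Cxcl1 and 0.13 (SE 0.40) for Cxcl2, neither called, so the large lactation difference of Cxcl3 was not seen at that size in either relative; the difference between genes was not tested.

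Cxcl5, an attractant made by epithelial and stromal cells more than by white cells, was near the dim level. It had 4.55, 5.31 and 4.11 in virgin 1, 2 and 3, 4.11, 5.13 and 5.64 in lactation 1, 2 and 3, and 6.85, 4.37 and 5.88 in post-lactation 1, 2 and 3. All groups overlapped, and post-lactation 1 was the highest. The virgin mean of 4.66 was dim, so post-lactation was at least 1.78-fold higher, a log2 bound of 0.83. The measured means differed by 1.05 log2 (SE 0.58; adjusted p = 1, and 0.527 with the set block), and within the sets it was 2.30, 0.58 and 0.26. Without post-lactation 1 the difference was 0.47.

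Ccl3, Ccl4 and Ccl9 differed least between groups. Ccl3 and Ccl4, inflammatory chemokines of macrophages and lymphocytes, averaged 9.57 ± 0.29 and 8.77 ± 0.21 in virgin mice, 9.46 ± 0.18 and 8.72 ± 0.39 in lactation, and 9.63 ± 0.40 and 8.96 ± 0.51 after weaning (SD, n = 3 each). Ccl9, which osteoclasts and macrophages make, averaged 8.87 ± 0.94 in virgin mice, 8.84 ± 0.40 in lactation and 9.04 ± 0.66 after weaning, with virgin 1 highest at 9.80 and virgin 3 lowest at 7.91. The other probe set of Ccl9 differed by -0.21 in lactation against virgin, 0.02 in post-lactation against lactation and -0.19 in post-lactation against virgin. By the probe sets used, differences of the 3 genes lay between -0.12 and 0.24 log2 in the 3 comparisons, and none was called in either fit. SEs were 0.25 to 0.45 without a block, and 0.10, 0.18 and 0.29 for Ccl3, Ccl4 and Ccl9 with the set block. With the SEs of the fit without a block, a difference of this order was not detectable.

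Exactly equal values occurred among the chemokines of set 3. Virgin 3 and lactation 1 had the same value for Cxcl5, Ccl3 and Ccl7, and virgin 3 and post-lactation 2 for Ccl4. A median polish over few arrays can give such ties, and their origin here was not tested. A difference of 0 there was not read as a measured absence of change.

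The receptors were read beside their ligands. Of 21 chemokine receptors, 0 passed in any comparison without a block, and 1 fell with the set block, Ackr1, in post-lactation against lactation. In that fit and comparison 3.53% of all genes were called, and 544 of the 18194 fell. Ackr1 binds chemokines without signalling and sits on red cells and venules. Its log2 difference was -0.98 (SE 0.25; adjusted p = 0.181, and 0.0286 with the set block). All 7 erythroid marker genes fell in the same comparison, with a median of -4.80, and their part in the Ackr1 result was not tested.

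Cxcr2, the neutrophil receptor of the CXC group, averaged 7.38 after weaning and 6.41 in lactation, a difference of 0.96 (SE 0.37; adjusted p = 0.736, and 0.376 with the set block), and was higher in all 3 sets. Against virgin it was 0.22 higher after weaning and 0.75 lower in lactation, neither called. Ccr2, the receptor of Ccl2 and Ccl7, and Ccr1, that of Ccl6 and Ccl9, differed by 0.39 (SE 0.38) and -0.08 (SE 0.35) between post-lactation and lactation. The receptors' median difference was 0.01 in that comparison and 0.07 against virgin.

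Among 30 inducers and NF-kB genes, 23 had a higher mean after weaning than in lactation, with a median of 0.32 and 0 passing without a block. With the set block 2 rose, Il1a and Zfp36, where 98 of all 18194 genes did. Il1a, the gene of interleukin 1 alpha, rose by 0.55 (adjusted p = 0.0375, and 1 without the block). Zfp36, whose protein destabilises cytokine messages, rose by 0.55 (adjusted p = 0.0461, and 1 without). Il6 differed by 1.20 (SE 0.33; adjusted p = 0.254, and 0.0836 with the block) and was higher in all 3 sets. Il1b differed by 0.70 and Tnf by 0.03, neither called. Against virgin, the median was 0.17 after weaning and -0.10 in lactation, with 0 called in either fit.

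The 24 other chemokines measured, among them platelet, lymphocyte and stromal ones, had a median of 0.21 after weaning against virgin, 0.12 after weaning against lactation and 0.03 in lactation against virgin, and 0 were called in either fit. Cxcl13, a B lymphocyte attractant, was 1.00 log2 higher after weaning than in virgin mice (SE 0.21; adjusted p = 0.221, and 0.0927 with the set block). Cxcl14, a chemokine of stromal and epithelial tissue, was 1.17 higher after weaning than in lactation (SE 0.37; adjusted p = 0.401, and 0.238 with the block). The plot of gene lists sets these medians side by side.

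**Figure D3:**
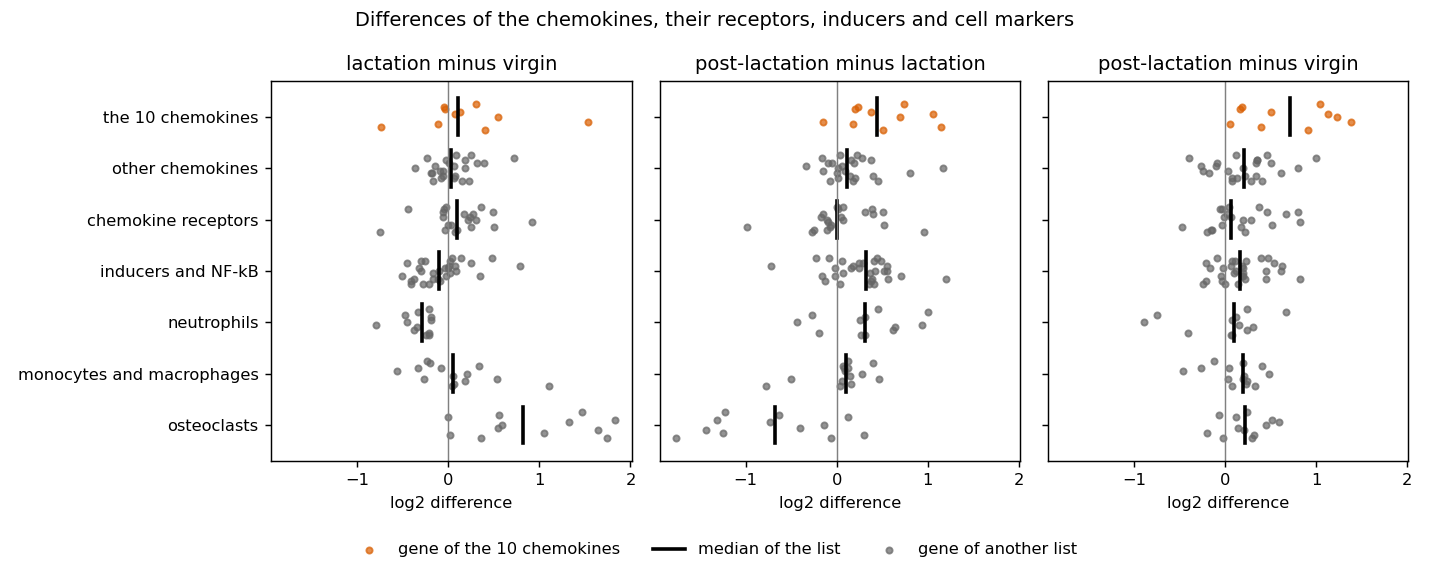
Log2 differences (horizontal axis) of single genes in 7 lists, for 3 comparisons. Each point is a gene, orange for the 10 chemokines, and black bars are list medians; the bar of the 10 chemokines stands at 0.71 in post-lactation minus virgin, and that of the osteoclast markers at 0.82 in lactation minus virgin and at -0.68 in post-lactation minus lactation.

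Neutrophil markers were at a high level in every array, 6.99 to 8.24 log2 above the array's median over 12 genes, although the marrow had been spun out. Whether more cells of a type were present or each held more RNA cannot be told apart in such bulk samples. They stood at 7.23 to 8.24 in virgin arrays, virgin 1 being highest, at 6.99 to 7.72 in lactation and at 7.56 to 7.79 after weaning. After weaning against lactation 1 of the 12 rose with the set block, where 98 of all 18194 genes did. It was Camp, an antimicrobial granule protein gene, by 0.45 (adjusted p = 0.0369, and 0.869 without the block). The mean of 9 of the 12 was higher after weaning than in lactation. The other 3, Elane, Mpo and Prtn3, which encode enzymes of primary granules, were lower after weaning in all 3 sets, Elane by a log2 difference of -0.43, and none was called. They are named after their values were seen. In lactation all 12 had a lower mean than in virgin mice, with a median of -0.28 and 0 called in either fit.

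Monocyte and macrophage markers lay closer together, at 2.93 to 3.27 in virgin arrays, 3.04 to 3.32 in lactation and 3.08 to 3.42 after weaning over 14 genes, with 0 called in either fit. The 10 chemokines on that scale stood at 3.16 to 4.07 in virgin arrays, where virgin 1 was again highest, at 3.72 to 3.85 in lactation and at 3.95 to 4.53 after weaning. On that scale virgin 1 had the highest Cxcl1, Ccl2, Ccl3, Ccl4, Ccl6, Ccl7 and Ccl9 of the virgin arrays, but not the highest Cxcl2, Cxcl3 or Cxcl5. It also had the highest neutrophil and the lowest osteocyte level. The part of these cells in the chemokine results was not tested. For Cxcl3, virgin 1 was the lowest virgin array, at 0.07 on that scale beside 0.19 and 0.14 in virgin 2 and 3. The lactation difference of Cxcl3 was 1.38 without virgin 1, and was not called (limma without a block, adjusted p = 0.814).

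**Figure D4:**
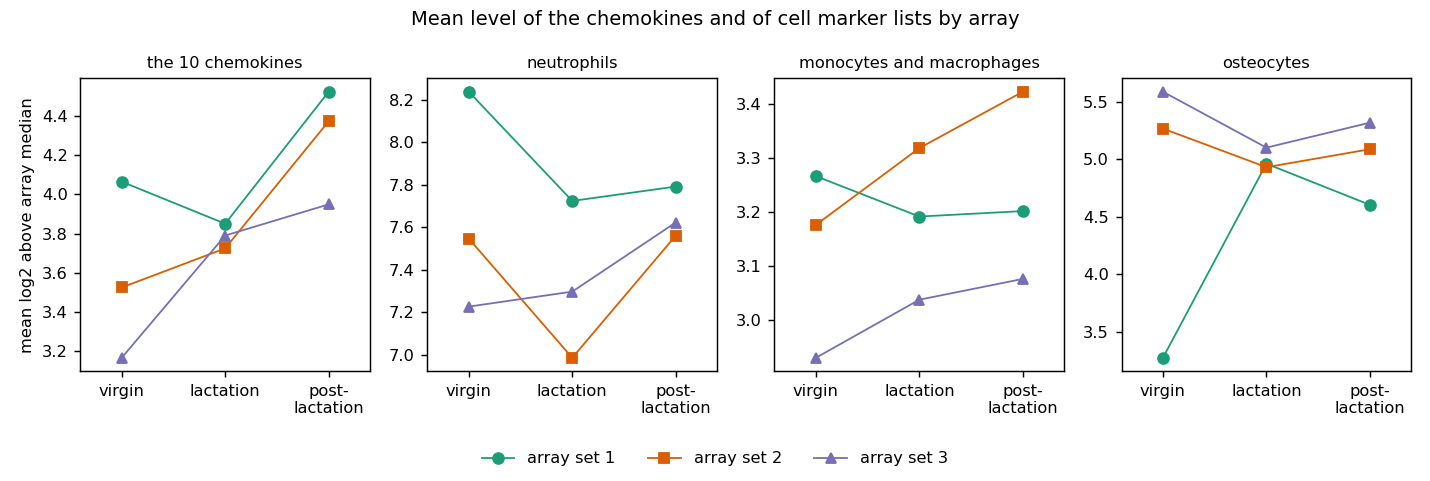
Mean log2 level above the array's median (vertical axis, a separate scale in each panel) of the 10 chemokines and of 3 cell marker lists in virgin, lactation and post-lactation arrays. Points joined by lines are the 3 arrays of 1 array set; virgin 1, in set 1, has the highest neutrophil level at 8.24 and the lowest osteocyte level at 3.27.

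For the 3 chemokines with the widest range of group means, dim means raised to the dim level, the genes of most similar course were picked by the mean absolute difference over 9 arrays, after centring each gene within its set, among 10762 genes above the dim level. For Ccl6 they were Pilra (0.0870 log2), Thbs1 (0.167) and Slc26a7 (0.201), where the median over all candidates was 0.490. For Cxcl3 they were Ttyh2 (0.286), Col12a1 (0.291) and Fcer1a (0.301), against a median of 0.653. For Ccl7 they were 4930438A08Rik (0.164), 6430548M08Rik (0.185) and Rell1 (0.187), against 0.528. Pilra, a receptor gene of myeloid cells, had means of 6.19, 6.58 and 7.30 in virgin, lactation and post-lactation arrays. Ttyh2 had 5.68, 6.85 and 6.31, so it was lower after weaning than in lactation by more than Cxcl3.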

How the data were processed

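The table the authors deposited gives log2 values of 45101 probe sets on 9 arrays, made with RMA per the submitters' processing notes. The version of RMA is not given in the sources used here. None was missing. Of the probe sets, 34958 named 1 gene in the supplied annotation, 932 several and 9211 none. The fit used limma 3.58.1 under R 4.3.3 (lmFit and eBayes, no trend, all 9 arrays, 6 residual degrees of freedom, or 4 with the set as a block) and called at a Benjamini-Hochberg adjusted p under 0.05 over 18194 genes. The sets are arrays that share over 1% exactly equal values (2.50% to 44.1% within, at most 0.00443% between). Separate summarising of the sets would be an inference from these ties, and no sample label gives it. When no block is used, differences in level from set to set add to the residual variance. Equal values leave no difference between arrays of a set, and their effect on the residual variance under the set block was not tested. Calls made only with the set block carry that limit. The number of arrays limits the precision. The 3 comparisons share arrays.

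The chemokines and the lists were chosen with earlier results of these data known. Of 191 list genes written, 174 were measured. Every chemokine is named, and of other lists up to 4 called genes per comparison, or the 2 with the largest difference; Tnf, Il6, Il1b and the chemokines' receptors were always open to naming. Lists are described by counts and medians, without a set test. The lists were other chemokines, receptors, inducers with NF-kB genes, immediate early with heat shock genes, and markers of neutrophils, monocytes, osteoclasts, osteocytes, osteoblasts, megakaryocytes, endothelium, lymphocytes and erythroid cells. The fit was run on simulated arrays with known changes, larger than any chemokine difference of group means here and without exactly equal values. That run does not bear on calls at the sizes seen here or on the effect of equal values. Alternatives were the set block, a replicate block, other scalings, a filter on dim genes, the mean of a gene's probe sets, a variance trend and leaving out arrays or sets.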

Additional observations from a re-analysis of the deposited data

How the results depend on the processing

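The set block moved the counts of called genes to 4 in lactation against virgin, 642 in post-lactation against lactation and 82 in post-lactation against virgin, beside 0, 129 and 32 without it, and the chemokines called in lactation to 1. Centring arrays on their median, or quantile normalization, each called 1 gene and 1 chemokine in lactation against virgin, and quantile normalization 205 genes in post-lactation against lactation. With a replicate block, 0 chemokines were called in post-lactation against virgin, where Cxcl3 had an adjusted p of 0.0558, and 0 with a variance trend (0.0556). Replicate numbers did not pair the arrays: correlations of same-numbered arrays' deviations ran from -0.41 to 0.67. With the set block and without set 1, 0 genes were called in post-lactation against lactation; without set 2, 70 were. Against virgin, 0, 0 and 8 were called without sets 1, 2 and 3, with 0 chemokines each time. Leaving out 1 array, genes called in lactation against virgin stayed at 0 to 0 in both fits, in post-lactation against lactation ran from 76 to 138 (195 to 927 with the set block) and in post-lactation against virgin from 13 to 34 (0 to 42), with 0 to 1 chemokines. The smaller counts without a set or an array come with fewer arrays; otherwise the cause was not tested.

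Differences that were not called changed sign. With the mean of a gene's probe sets, Ccl9 was -0.013 in post-lactation against virgin. With the set block, lactation minus virgin was -0.078 for Cxcl2, -0.087 for Cxcl5, 0.18 for Ccl4 and 0.44 for Ccl9 without set 1, -0.10 for Ccl2 without set 2, and -0.12 for Cxcl1 and -0.72 for Ccl2 without set 3. Post-lactation minus virgin was -0.0079 for Ccl3, -0.043 for Ccl4 and -0.061 for Ccl9 without set 2. Leaving out 1 array, over both fits, lactation minus virgin ran from -0.023 to 0.77 for Cxcl1, -0.25 to 0.55 for Cxcl2, -0.20 to 0.73 for Cxcl5, -0.54 to 0.94 for Ccl2, -0.27 to 0.018 for Ccl3, -0.27 to 0.13 for Ccl4 and -0.52 to 0.43 for Ccl9. Post-lactation minus lactation ran from -0.026 to 0.37 for Ccl3, -0.044 to 0.46 for Ccl4 and -0.11 to 0.57 for Ccl9. Post-lactation minus virgin ran from -0.14 to 0.26 for Ccl3, -0.094 to 0.41 for Ccl4 and -0.31 to 0.63 for Ccl9. The causes were not tested.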

Other observations

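Immediate early and heat shock genes, 18 of them, had a median log2 difference of -0.15 in lactation against virgin, 0.13 in post-lactation against lactation and -0.02 in post-lactation against virgin, with 0 called by limma in either fit. Of 12 osteoclast markers, 11 had a higher mean in lactation than in virgin mice. With the set block 1 rose there, Dcstamp, against 0.022% of all genes called. After weaning against lactation 5 of the 12 fell with the block, where 544 of all 18194 genes did. Without the block 0 of the 12 passed in either comparison. The medians after weaning against lactation were 0.05 for 6 osteoblast and stroma genes, 0.18 for 5 megakaryocyte, 0.21 for 8 endothelial, 0.07 for 8 lymphocyte and 0.02 for 9 osteocyte genes, with 0 called in either fit. The 7 erythroid genes had a median of 1.22 in lactation against virgin, with 0 called in either fit. In post-lactation against virgin their median was -3.51. There 5 of the 7 fell without a block and 4 with the set block, where 31 and 77 of all 18194 genes fell.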
